A study of Homo sapiens with 20 samples.

Results

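The comparison described here is between HCT-116 cells given the proteasome inhibitor MG132 together with α-amanitin, a mushroom toxin that inhibits RNA polymerase II, and HCT-116 cells given MG132 alone. Its members were taken from the sample labels: 8 of the 20 libraries, 4 in each group. Every gene and repeat subfamily of the deposited table was considered, 39918 genes and 1174 repeat subfamilies, of which 18959 and 1076 had enough counts to be tested. HCT-116 is an established human colorectal cancer line, and total RNA depleted of ribosomal RNA was sequenced.

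Both groups shared their synchronisation and their proteasome inhibitor. Cells were held in 2 mM thymidine for 16 h, which stalls DNA replication, released for 7 h, and then kept for 3 h in 20 µM MG132, either alone or with 50 µg/ml α-amanitin. The groups were therefore matched for time and differed only in the toxin. Further groups of 4 libraries are used below for reference: G2 cells collected after the same thymidine block and release at 0 h of drug, and cells given 100 nM bortezomib, another proteasome inhibitor, for 3 h after the same synchronisation. No library of the series had α-amanitin without MG132, so the toxin's effect in cells without MG132 cannot be read here. No label states that replicates were independent cultures. The p-values therefore describe the spread among these libraries, which may be technical.

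RNA polymerase II transcribes the protein-coding genes of the nucleus, most long noncoding RNAs, the host genes of intronic small nucleolar RNAs, and the U1 and U2 spliceosomal RNAs. RNA polymerases I and III are much less sensitive to α-amanitin. When the proteasome is blocked, unfolded and short-lived proteins accumulate and the cell turns on heat shock genes through the factor HSF1, amino acid response genes through ATF4, antioxidant genes through NRF2, and immediate early genes. An mRNA that must be newly made to rise is a direct read-out of transcription, whereas a long-lived mRNA made before the drug was added can persist without it.

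Library totals of the 8 samples lay between 27347163 and 39710457 counts. α-Amanitin acts on a protein, so no transcript checks directly that the toxin worked, and POLR2A, which encodes the large subunit it binds, is given with the lists without a call below. Epithelial markers were present in all 8 libraries, with EPCAM between 141.5 and 266.4 CPM (counts scaled to a common library total, adjusted by the TMM method) and KRT8 between 1596 and 2846 CPM, while VIL1 was near 0 (0 to 0.223 CPM). KRT18 (1291 to 1973 CPM with MG132 alone, 910 to 1266 CPM with α-amanitin) and CLDN4 (61.65 to 123.5 and 40.53 to 59.44 CPM) lay lower with the toxin without overlap, and none of the 9 tested epithelial markers was called by edgeR, DESeq2 or limma-voom, with 2 at an unadjusted p under 0.05. The 10 fibroblast markers summed to 5.77 to 12.3 CPM with MG132 alone and 9.23 to 13.6 CPM with α-amanitin, almost all of it COL1A1, and the leukocyte marker CD3D was at 0 in all 8 libraries. Leukocyte markers summed to 4.84 to 8.72 and 6.68 to 8.39 CPM. MG132 replicates 2 and 4 stood apart in their GC content: the slope of a gene's deviation on its GC content was -0.402 and 0.744 log2 units per 10 percentage points, while that of the other 6 libraries lay between -0.149 and 0.202. Many counts below are also given without the 4 GC-skewed libraries of the series, which are these 2 with 1 asynchronous and 1 G2 library.

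Adding α-amanitin lowered 286 genes and raised 129 at an adjusted p under 0.05 (called genes), which is 1.51% and 0.68% of those tested, while the median gene stood at a log2 difference of 0.022 (with α-amanitin minus without, here and throughout). The fall was large where it occurred, at least 2-fold in 244 of the 286, and 112 of the 129 higher genes rose at least 2-fold. Protein-coding genes made up 151 of the lower and 74 of the higher calls, or 1.1% and 0.538% of the 13755 tested. In the same edgeR test 2368 of all 18959 tested genes had an unadjusted p under 0.05, the background for such counts in the lists. Among small RNA genes, those called lower were 22 of 88 snRNA genes (25%) and 40 of 279 snoRNA and scaRNA genes (14.3%), with none of either class called higher by edgeR. These shares were not tested against each other, and without the GC-skewed libraries 16 genes of each class were called. Total counts in a bulk sample cannot separate fewer RNA molecules per cell from fewer cells, and a fall of all transcripts together would not be seen after scaling.

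Under scaling by total library size the median moved to 0.196 and 58.6% of the calls were lower. Scaling to the mitochondrial mRNAs moved it to -0.124 with 84.5% of the calls lower, against 68.9% in the values given here. The number of called genes was 186 without α-amanitin replicate 1, 228 without α-amanitin replicate 2 and 268 without MG132 replicate 3. Leaving out the GC-skewed libraries gave 425 called genes, 368 lower and 57 higher, of which 173 and 38 were among the 286 and 129. Code letters in the sample descriptions, whose meaning is not given, placed 1 library of MG132 alone and 1 with α-amanitin under K, 1 of each under L, and 2 and 1 under O. Of all 18959 tested genes, 3271 were lower with α-amanitin within every one of these letters and 4757 were higher. Among them were all 286 genes called lower and all 129 called higher, which were called on these same libraries, so that this gives no separate support.

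Heat shock genes held some of the steepest falls. Of 32 tested genes of the cytosolic heat shock list, 11 were called lower and none higher, with a median of -0.85, and 31 had a negative log2 difference. Their summed level dropped from 34820 ± 5520 CPM (SD, n = 4) to 15560 ± 1540 CPM (SD, n = 4), next to 14800 ± 459 CPM (SD, n = 4) in G2 cells. The members that fell were HSPA6, HSPA1A and HSPA1B, which encode inducible HSP70 chaperones, the constitutive HSP70 gene HSPA8, the J-domain co-chaperones DNAJB1, DNAJB4 and DNAJA4, the small heat shock proteins CRYAB and HSPB1, the co-chaperone BAG3 and the collagen chaperone SERPINH1. Leaving out the GC-skewed libraries, 16 of the list were called, and 19 were called when each gene was corrected for its GC content and length.

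The promoters of 3 of these genes are shown because heat shock genes are turned on through a short repeated element. RefSeq sequence (GRCh38.p14) upstream of the start is given 5′ to 3′ on the gene's strand, and capitals mark matches to GAANNTTC or TTCNNGAA, each of which reads the same on both strands and which may overlap one another. The windows of HSPA1A and DNAJB1 end where an annotated exon begins, and DNAJB1 is shown at one of its annotated starts.
HSPA6, chr1:161524290-161524539, plus strand: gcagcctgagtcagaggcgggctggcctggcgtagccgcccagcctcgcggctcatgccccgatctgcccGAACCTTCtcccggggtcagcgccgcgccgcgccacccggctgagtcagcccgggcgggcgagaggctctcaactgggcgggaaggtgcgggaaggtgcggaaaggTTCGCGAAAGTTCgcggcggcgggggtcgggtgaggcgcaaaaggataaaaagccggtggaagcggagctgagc
HSPA1A, chr6:31815293-31815463, plus strand: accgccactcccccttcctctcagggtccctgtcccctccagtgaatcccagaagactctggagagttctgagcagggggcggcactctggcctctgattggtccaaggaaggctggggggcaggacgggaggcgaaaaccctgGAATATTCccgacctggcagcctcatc
DNAJB1, chr19:14518421-14518647, minus strand: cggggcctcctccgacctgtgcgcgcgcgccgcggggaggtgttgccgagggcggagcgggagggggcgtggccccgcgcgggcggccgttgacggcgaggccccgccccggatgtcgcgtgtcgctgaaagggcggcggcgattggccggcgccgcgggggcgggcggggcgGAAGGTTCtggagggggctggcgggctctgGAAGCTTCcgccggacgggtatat

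The matches began 180, 74 and 69 bases before the start of HSPA6, 106 bases before that of HSPA1A, and 77 and 47 bases before that of DNAJB1. A match lay within 250 bases upstream in 9 of the 10 heat shock genes called lower whose promoter was in the table (90%) and in 9 of the 19 not called (47.4%). The same letters were found in 14% of all genes with a promoter in the table, in 11.8% of the genes tested and in 23% of all genes called lower. Counted by promoter, they were found in 11.6% of all 35116. A match is a description of the letters and not a site.

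HSPA6, on chromosome 1 at 161524540 to 161526910 (hg38), is a single-exon HSP70 gene that is nearly silent in unstressed cells. It measured 91.3, 47.0, 88.0 and 76.0 CPM with MG132 alone and 1.65, 2.10, 0.945 and 1.85 CPM with α-amanitin, while G2 cells had 0.125 ± 0.0637 CPM (SD, n = 4). The groups were far apart, at a log2 difference of -5.52 (SE 0.39, adjusted p = 1.323e-07), and the level with the toxin still lay above that of G2 cells. HSPA1A went from 576, 195, 437 and 638 CPM to 13.9, 18.5, 15.1 and 20.5 CPM, a log2 difference of -4.76 (SE 0.43, adjusted p = 1.187e-06). Its near-identical neighbour HSPA1B went from 4094, 3618, 4094 and 5779 CPM to 380, 452, 488 and 698 CPM, at -3.12 (SE 0.30). How reads were divided between these copies is not given in the sources used here, so their separate values are uncertain, although both groups were apart in each.

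DNAJB1, a J-domain partner of HSP70, held 1685, 1135, 1783 and 2315 CPM with MG132 alone and 209, 262, 276 and 364 CPM with α-amanitin. The mean with the toxin, 278 ± 64.4 CPM (SD, n = 4), matched the 278 ± 42.3 CPM (SD, n = 4) of G2 cells. BAG3, which couples HSP70 to selective autophagy, fell from 537 ± 79.8 to 132 ± 14.9 CPM, at -2.03 (SE 0.19). CRYAB fell from 104, 60, 147 and 61 counts to 3, 7, 0 and 1, with a fitted log2 difference of -5.15 (SE 0.60) that rests on these few counts. HSPA8 fell from 9578 ± 3527 to 4035 ± 875 CPM at -1.25 (adjusted p = 0.008532), and its adjusted p was 0.0532 without α-amanitin replicate 1 and 0.0836 without the GC-skewed libraries.

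HSPH1, the HSP110 gene, was not called at -1.89 (SE 0.52, adjusted p = 0.06865). It measured 1331, 1609, 1362 and 198 CPM with MG132 alone and 343, 317, 357 and 199 CPM with α-amanitin, so that MG132 replicate 4 alone lay among the libraries with the toxin. Without that library the difference was -2.24 and passed (adjusted p = 0.00539). HSP90AB1 at -0.33, HSPA9 at -0.23 and HSF1, the factor that drives the list, at -0.06 were not called.

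**Figure D1:**
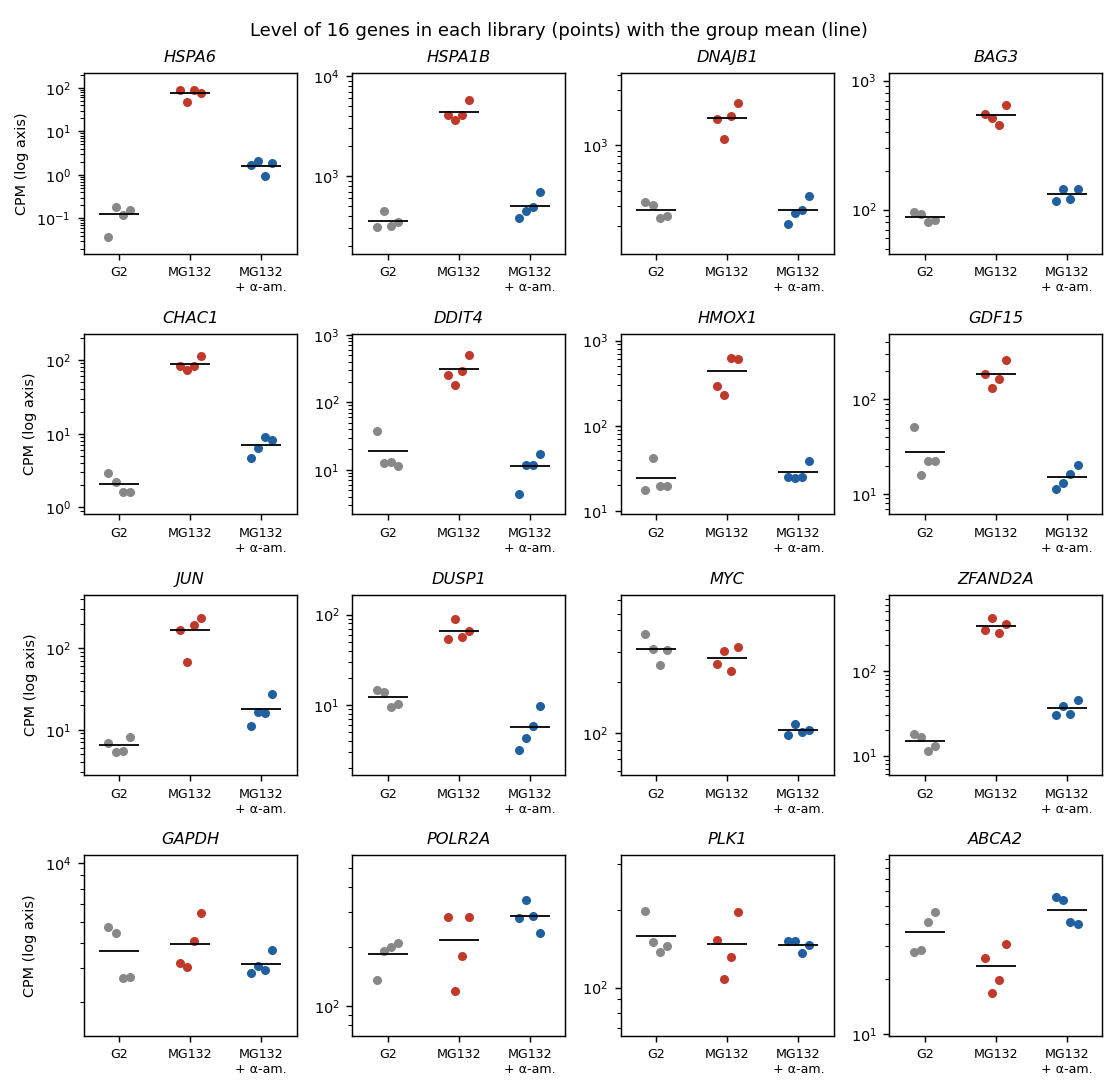
Level of 16 genes in CPM on a log axis, with 1 point per library and a line at the group mean, for G2 cells, MG132 alone and MG132 with α-amanitin. HSPA6, HSPA1B, DNAJB1, BAG3, CHAC1, DDIT4, HMOX1, GDF15, JUN, DUSP1, MYC and ZFAND2A lie lower with α-amanitin in all 4 libraries than in any library with MG132 alone, GAPDH, POLR2A and PLK1 overlap, and ABCA2 lies higher.

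A gene tied to the handling of damaged proteins fell with them. ZFAND2A, an arsenite- and heat-inducible protein that associates with the proteasome, measured 299, 412, 281 and 352 CPM with MG132 alone and 29.9, 38.3, 30.6 and 45.0 CPM with α-amanitin, at -3.22 (SE 0.29, adjusted p = 1.277e-06). The groups did not overlap, and G2 cells had a mean of 14.8 CPM. SQSTM1, the autophagy receptor p62, stood at -0.88 (adjusted p = 0.06577) and reached 0.0116 without MG132 replicate 2. None of 40 proteasome subunit genes was called by edgeR, DESeq2 or limma-voom, 2 had an unadjusted p under 0.05, and the list's median was -0.28.

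The ATF4 amino acid response also fell, with 13 of 33 tested genes called lower, none higher and a median of -0.93. Its summed level went from 4892 ± 473.6 to 2455 ± 250.6 CPM (SD, n = 4 each), beside 2311 ± 177.4 CPM in G2 cells. The genes called were the regulators ATF4, ATF3 and DDIT3, the feedback genes PPP1R15A and TRIB3, the stress effectors CHAC1, SESN2, DDIT4 and STC2, the secreted factors FGF21 and INHBE, and the amino acid synthesis enzymes ASNS and PSAT1. DESeq2 called 20 of the list and the fit without the GC-skewed libraries 11.

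CHAC1 encodes an enzyme that degrades glutathione. It measured 83.4, 73.4, 84.1 and 114 CPM with MG132 alone and 4.67, 6.48, 9.06 and 8.32 CPM with α-amanitin, at -3.64 (SE 0.32, adjusted p = 1.05e-06). DDIT4, an inhibitor of mTORC1 signalling, went from 253, 180, 295 and 509 CPM to 4.42, 11.7, 11.8 and 17.2 CPM, at -4.78 (SE 0.55). Neither gene's groups overlapped between the treatments, and DDIT4 with α-amanitin lay under the mean of 18.7 ± 12.7 CPM (SD, n = 4) of G2 cells. SESN2, another stress-induced restraint on mTORC1, fell by 2.69 on the log2 scale, and PPP1R15A, a phosphatase subunit that reverses the translational block, by 2.02.

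ATF3, a stress-induced bZIP factor, fell from 275 ± 63.0 to 44.6 ± 10.2 CPM and DDIT3, the pro-apoptotic factor CHOP, from 58.6 ± 9.33 to 11.1 ± 6.65 CPM (SD, n = 4 each). ATF4 itself measured 338, 460, 419 and 538 CPM against 155, 177, 229 and 278 CPM, at -1.07 (adjusted p = 0.009199). Its call was lost without α-amanitin replicate 1 or 2 (adjusted p = 0.0575 and 0.0528) and without the GC-skewed libraries (0.0796). FGF21, a stress hormone, was absent from all 4 G2 libraries, a count of 0. It had 34, 31, 43 and 44 counts with MG132 alone and 3, 3, 2 and 6 with α-amanitin, at -3.58 (SE 0.48, adjusted p = 0.000791).

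The FGF21 promoter is printed as an example of the composite element that ATF4 binds. Capitals mark the only match to TGATGNAA in the window, on the reverse strand, beginning 54 bases before the RefSeq start (GRCh38.p14).
FGF21, chr19:48755274-48755523, plus strand: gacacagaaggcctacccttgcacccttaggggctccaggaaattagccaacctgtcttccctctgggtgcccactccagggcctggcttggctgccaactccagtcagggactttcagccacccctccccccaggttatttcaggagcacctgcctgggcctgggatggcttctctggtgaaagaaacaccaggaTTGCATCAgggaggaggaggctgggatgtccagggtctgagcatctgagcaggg

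Of 12 ATF4 list genes called lower with a promoter in the table, 4 held a match on either strand (ATF3, ASNS, CHAC1 and FGF21), against 1 of 13 that were not called (CEBPG). The letters occurred in 3.89% of all genes with a promoter in the table (3.14% of all promoters), 2.38% of the genes tested and 5.93% of all genes called lower.

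Antioxidant and p53 genes were lowered in part. Of 25 NRF2 targets 4 fell, with a median of -0.56. HMOX1, the haem-degrading enzyme, had 291, 232, 625 and 600 CPM with MG132 alone and 24.9, 24.7, 25.4 and 38.4 CPM with α-amanitin, at -3.95 (SE 0.37, adjusted p = 1.491e-06), and G2 cells had 24.7 ± 11.6 CPM (SD, n = 4). OSGIN1 fell by 1.96 on the log2 scale and SRXN1, which repairs oxidised peroxiredoxins, by 1.19. FTL, the ferritin light chain, was called at -1.11 (adjusted p = 0.03338), and lost the call without any 1 of 5 libraries (MG132 replicates 3 and 4 and α-amanitin replicates 1, 2 and 3, adjusted p between 0.0722 and 0.152). The list's count rose to 7 without MG132 replicate 4 and without the GC-skewed libraries.

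Among 27 p53 targets 9 fell and none rose, with a median of -0.60. The count was 5 under total library size scaling, 5 in the 8 libraries only and 8 without the GC-skewed libraries. GDF15, a secreted stress cytokine, measured 185, 130, 165 and 263 CPM against 11.4, 13.0, 16.5 and 20.4 CPM, at -3.60 (SE 0.38, adjusted p = 6.237e-06). CDKN1A, the cell cycle inhibitor p21, fell from 346 ± 119 to 108 ± 21.1 CPM and GADD45A, a DNA damage and stress sensor, from 68.4 ± 11.8 to 24.8 ± 6.16 CPM (SD, n = 4 each). SESN2, PLK2, PLK3, AEN, BTG2 and TNFRSF10B were the other members called. MDM2, the ubiquitin ligase for p53, was not, at 338, 313, 321 and 53.6 CPM against 264, 253, 225 and 172 CPM (-0.17, adjusted p = 0.9276). MG132 replicate 4, which was low for MDM2, is the library with the steepest GC slope. MDM2 was not called without that library, nor without the GC-skewed libraries. DDB2, XPC and FDXR, equally classical p53 targets, stood between -0.07 and -0.02.

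Of 39 immediate early genes 23 fell (59%) and none rose, with a median of -1.13. Their summed level went from 2775 ± 480.7 to 1047 ± 136.8 CPM (SD, n = 4 each). Unlike the heat shock and ATF4 lists, this sum lay under the 2070 ± 205 CPM of G2 cells. The mean with α-amanitin was below every G2 library in 17 of the 23 called genes, but in 0 of the 11 called heat shock genes and 2 of the 13 called ATF4 genes. G2 cells were collected 3 h earlier, so this places levels and compares no treatment. The difference between lists was not tested. Without the GC-skewed libraries 19 were called, and 15 in a fit of the 8 libraries only.

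JUN, the AP-1 subunit, measured 167, 66.9, 193 and 235 CPM with MG132 alone and 11.1, 16.6, 15.9 and 27.4 CPM with α-amanitin, at -3.22 (SE 0.39, adjusted p = 4.339e-05). DUSP1, a phosphatase that switches off MAP kinases, measured 54.3, 88.5, 56.8 and 66.2 CPM against 3.16, 4.26, 5.80 and 9.67 CPM, at -3.54 (SE 0.30). Neither gene's groups overlapped, and all 4 DUSP1 values with the toxin lay under the G2 mean of 12.1 ± 2.55 CPM (SD, n = 4). IER5, a co-regulator of HSF1, measured 106, 137, 115 and 141 CPM against 11.7, 14.9, 25.2 and 21.6 CPM, at -2.77 (SE 0.22, adjusted p = 4.962e-07).

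MYC, the growth regulator, measured 253, 301, 231 and 320 CPM against 97.2, 112, 102 and 104 CPM, at -1.41 (SE 0.21, adjusted p = 0.000395). G2 cells had 311 ± 51.7 CPM (SD, n = 4), close to the level with MG132 alone, so that the 4 libraries with the toxin were the lowest of these 12. IER3, an inhibitor of apoptosis, was placed likewise, at 225 ± 99.1 CPM with MG132 alone, 66.6 ± 13.7 with α-amanitin and 251 ± 27.6 in G2 cells. ZFP36, which encodes an mRNA-decay factor, stood at 17.6 ± 6.82, 4.22 ± 0.572 and 14.4 ± 2.84 CPM (SD, n = 4 each). FOS, the partner of JUN, fell from 30.1 ± 6.25 to 6.70 ± 3.04 CPM at -2.17 (SE 0.37), and EGR1, a zinc-finger factor, was not called at -0.79 (adjusted p = 0.5826). KLF4 was called at -0.89 (adjusted p = 0.03091), and lost its call without any 1 of 6 of the 8 libraries, namely all but MG132 replicates 3 and 4 (adjusted p between 0.054 and 0.143).

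Many early-gene mRNAs carry AU-rich elements in the 3′ UTR, which are known to mark mRNAs for rapid decay, and the stretches of DUSP1 and FOS that hold the letters ATTTATTTA (capitals) are shown from the hg38 genome with 10 bases on either side.
DUSP1, chr5:172768641-172768669, minus strand: gctggtccttATTTATTTAacttcacccg
FOS, chr14:75282058-75282086, plus strand: tgtgtttttaATTTATTTAttaagatgga

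ATTTATTTA was present in the annotated 3′ UTR of 17 of 147 protein-coding genes called lower (11.6%), 5 of 70 called higher (7.14%) and 992 of 13509 tested (7.34%). These shares are a description, and their difference was not tested.

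Inflammatory and Wnt feedback genes contributed few calls. Of 22 NF-kB targets 4 fell, with a median of -0.09: the chemokines CXCL1 and CXCL8 and the inhibitors NFKBIA and NFKBIZ. NFKBIA measured 10.1, 14.6, 15.8 and 22.2 CPM against 3.71, 3.13, 7.63 and 8.70 CPM, and G2 cells had 30.5 ± 5.10 CPM (SD, n = 4). CXCL8 rested on MG132 replicate 2, which had 13.4 CPM beside 3.31, 2.22 and 0.405 CPM, and without it the adjusted p was 0.297. The list's count was 2 without α-amanitin replicate 1, without α-amanitin replicate 2 or without the GC-skewed libraries. Of 13 Wnt feedback genes, MYC and DKK1 fell, while the list's median was 0.20, and 1 was called without the GC-skewed libraries. DKK1, a secreted Wnt inhibitor, was called at -1.17 (adjusted p = 0.03575) with 237 CPM in MG132 replicate 2, and stood at -0.76 (adjusted p = 0.163) without that library. Both CXCL8 and DKK1 also lost their calls without any 1 of the 4 libraries with α-amanitin (adjusted p between 0.0528 and 0.152). AXIN2 and RNF43, negative regulators transcribed by Wnt signalling, stood at 0.66 and 0.51 and were not called (adjusted p = 0.434 and 0.1668).

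**Figure D2:**
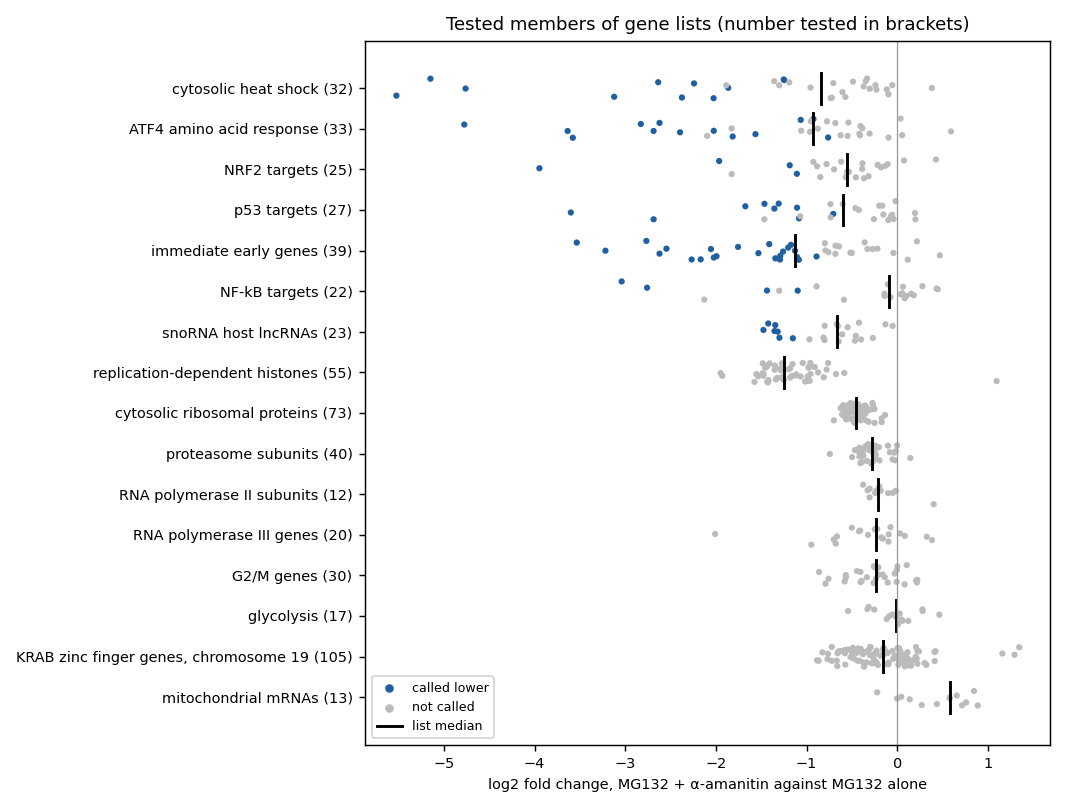
Log2 difference of each tested member of 16 gene lists (points, blue where called lower and grey where not called) with the list's median as a black bar. The heat shock, ATF4, immediate early, p53 and snoRNA host lists hold most of the called genes, histone genes sit low without a call, and the proteasome, RNA polymerase II, G2/M and glycolysis lists have medians between -0.28 and -0.01.

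Genes that another proteasome inhibitor had raised were chosen on libraries outside the comparison, bortezomib against G2, where 82 of 18959 genes (0.433%) were at least 2-fold higher at an adjusted p under 0.05. Of these 82 genes, 42 were lower with α-amanitin added to MG132 (51.2%), 3 were higher, and the median was -1.19, with 71 of the 82 negative. The background for a lower call is the 1.51% above. Of 96 genes lowered by bortezomib, 5 were called lower, with a median of 0.04. The 6 genes with the smallest bortezomib p, CHAC1, HSPA6, SESN2, GADD45A, BAG3 and OSGIN1, were all called lower, with log2 differences between -5.52 and -1.46. SERPINH1, a collagen chaperone, fell from 1093 ± 286.8 to 210.5 ± 28.3 CPM, and TSC22D3, a glucocorticoid- and stress-induced leucine zipper gene, from 34.0 ± 13.0 to 8.42 ± 3.4 CPM (SD, n = 4 each).

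A member of this set that did not pass, IFRD1, stood at -1.13 (adjusted p = 0.06447). NEAT1, the scaffold RNA of paraspeckles, stood at 0.74 (adjusted p = 0.4064), with 159, 124, 114 and 63.7 CPM with MG132 alone and 213, 238, 177 and 138 CPM with α-amanitin. Its libraries overlapped, so its level with the toxin cannot be told from that without. Among the 3 that were higher was SEMA4A, at 2.41. The number of the 82 called in either direction was 45, with 43 without the GC-skewed libraries and 36 in a fit of the 8 libraries alone.

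**Figure D3:**
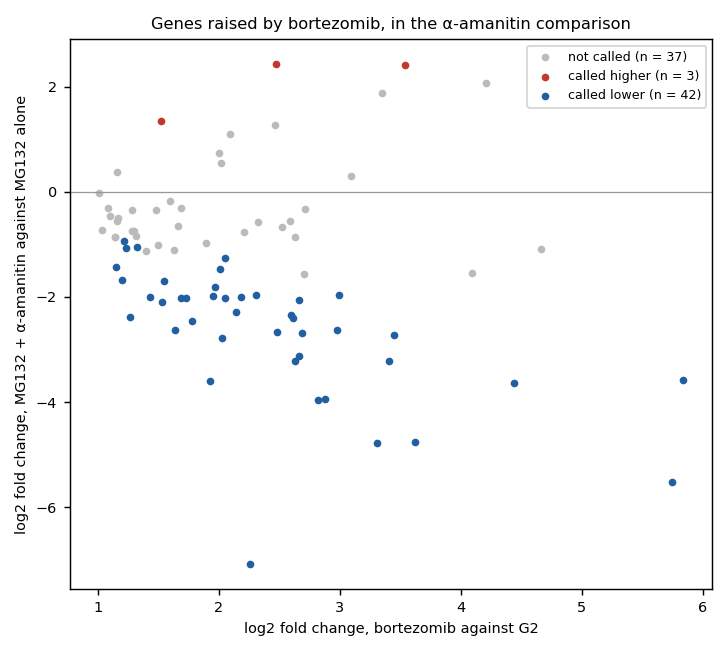
Each point is 1 of the 82 genes raised by bortezomib against G2, with that log2 difference on the horizontal axis and the log2 difference of MG132 with α-amanitin against MG132 alone on the vertical axis. Most points, 71 of 82, lie below 0 on the vertical axis, and 42 are called lower.

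Over all 286 genes called lower, the mean with α-amanitin was below every G2 library in 174, within the range of the G2 libraries in 69 and above it in 43. The mean with MG132 alone was above every G2 library in 183 of the 286, within their range in 85 and below it in 18. Across all 18959 genes the mean with α-amanitin was below every G2 library in 3039, within in 11950 and above in 3970. Across the same 18959 the mean with MG132 alone was above in 2910, within in 12740 and below in 3309. Both kinds of gene were among the lower calls. Some stood above G2 with MG132 alone, and others stood at the G2 level with MG132 alone and under it with the toxin. The 286 were selected as lower in this same comparison, which favours a place above G2 without the toxin and under G2 with it. These counts therefore give no separate support.

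Genes of the spliceosomal U1 RNA were among the steepest falls. U1 is made by RNA polymerase II, is not polyadenylated, and recognises the 5′ splice site by pairing through its own 5′ end. Of the 22 snRNA genes called lower, 16 were variant U1 genes (RNVU1), at log2 differences between -5.43 and -1.64. The other 5 of the 21 RNVU1 genes tested were not called and lay between -1.44 and 0.31, and the median of all 88 snRNA genes was -1.04. Without the GC-skewed libraries 16 snRNA genes were called. The first 30 bases of the canonical gene RNU1-2 and of 5 variants are shown (GENCODE 29, hg38), with capitals for the letters ACTTACCTG that pair with the splice site.
RNU1-2, chr1:16895980-16896009, plus strand: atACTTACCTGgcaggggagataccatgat
RNVU1-29, chr1:146376807-146376836, plus strand: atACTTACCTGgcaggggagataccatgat
RNVU1-19, chr1:120850956-120850985, minus strand: atACTTACCTGgcaggggagatactattat
RNVU1-14, chr1:145281116-145281145, plus strand: atACTTACCTGgaaggggagataccatgat
RNVU1-15, chr1:144412576-144412605, plus strand: atacttacttggcgggggagataccatgat
RNVU1-34, chr17:58679661-58679690, minus strand: atacttaactggcaagggaaataacatgat

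Over their whole length RNVU1-29 was identical to RNU1-2, RNVU1-19, RNVU1-14 and RNVU1-15 were 92.2%, 90.9% and 89.1% identical to it, and RNVU1-34 79.5%. RNVU1-34, the most diverged of the 5, measured 4.27, 17.2, 9.70 and 11.7 CPM with MG132 alone and 0.192, 0.344, 0.163 and 0.276 CPM with α-amanitin, at -5.43 (SE 0.41, adjusted p = 2.503e-07). Its values with the toxin rest on 7, 11, 5 and 10 counts. RNVU1-15 measured 4.65, 10.5, 8.89 and 9.19 CPM against 0.384, 0.532, 0.326 and 0.332 CPM, at -4.39 (SE 0.39). In both genes the highest library with the toxin was under the lowest without it by several fold. RNVU1-19 and RNVU1-14 stood at -4.47 and -4.02 (SE 0.42 and 0.38).

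RNU1-2 itself stood at -2.31 (SE 0.38), from 31.7 ± 9.04 to 6.40 ± 2.97 CPM, and RNVU1-29, which has the canonical sequence, at -1.64 (SE 0.41, adjusted p = 0.03622), from 106 ± 45.9 to 34.1 ± 10.9 CPM (SD, n = 4 each). The call for RNVU1-29 was lost without any 1 of 5 libraries (MG132 replicates 2 and 4 and α-amanitin replicates 1, 2 and 3, adjusted p between 0.0574 and 0.161). Reads of a canonical U1 cannot be assigned to 1 copy, and how such reads were counted is not given in the sources used here.

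The list of 20 canonical spliceosomal snRNAs made by RNA polymerase II had 1 call, RNU1-2, a median of -0.88 and 8 members with an unadjusted p under 0.05. DESeq2 called 4. The 20 tested genes of RNA polymerase III had no call by edgeR, DESeq2 or limma-voom, 2 with an unadjusted p under 0.05 and a median of -0.24. RN7SK, the RNA that sequesters the elongation factor P-TEFb and is made by RNA polymerase III, stood at -0.68 (adjusted p = 0.595), and RPPH1, the RNA of RNase P, at -0.67 (adjusted p = 0.598). Neither overlapped between the groups. In all, 2 of the 20 genes did not, beside 1674 of all 18959 tested genes. RN7SK ran from 9999 to 12973 CPM with α-amanitin and from 13163 to 27293 CPM with MG132 alone. G2 cells varied more, with 20364 ± 16137 CPM (SD, n = 4).

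Small nucleolar RNAs guide chemical modification of ribosomal RNA and are mostly cut out of the introns of host genes. Whether the reads in their rows came from the mature RNA or from host introns cannot be told here. Of 279 snoRNA and scaRNA genes 40 fell and none rose, with a median of -0.75. The groups did not overlap in 113 of them, beside 1674 of all 18959 tested genes. A tested host gene on the same strand contained 270 of the 279, in 151 hosts. Where the host itself was called lower, 14 of 35 small RNAs were called (40%, median -1.13), and where it was not, 26 of 235 (11.1%, median -0.71). The 35 lay in 12 hosts and the 235 in 139, so that small RNAs of 1 host are not separate cases. None of the 9 without a host was called by edgeR, with a median of -0.38. The number called was unstable, at 25 without MG132 replicate 2, 16 without α-amanitin replicate 1, 26 without α-amanitin replicate 2, 16 without the GC-skewed libraries and 74 with DESeq2.

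SNORD14C, SNORD14D and SNORD14E lie in introns of HSPA8. SNORD14C measured 5.95, 12.9, 7.42 and 10.1 CPM with MG132 alone and 0.686, 1.00, 0.619 and 2.27 CPM with α-amanitin, at -2.98 (SE 0.36, adjusted p = 4.215e-05). The other 2 stood at -2.86 and -2.83, while HSPA8 stood at -1.25. SNORD26, SNORD27 and SNORD28, in introns of SNHG1, stood at -2.0, -2.70 and -2.54 while the host stood at -1.42, and SNORD25 at -1.39. SNORD27 measured 3.46, 9.60, 4.26 and 4.73 CPM against 0.467, 1.00, 1.14 and 0.774 CPM. SNORD25 lost its call without MG132 replicate 2 or α-amanitin replicate 1, 2 or 3 (adjusted p between 0.0715 and 0.111).

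Small RNAs were also called in introns of genes that were not called themselves. In RPL4, a ribosomal protein gene at -0.50 (unadjusted p = 0.04138, adjusted p = 0.3679), SNORD18C, SNORD18A and SNORD16 were called at -2.81, -1.73 and -1.42. RPL7A stood at -0.32 with SNORD36B at -2.07, and NCL, the nucleolin gene, at 0.05 with SNORD82 at -1.62. The U3 copy that lies within TEX14 fell from 17.2 ± 6.09 to 0.931 ± 0.388 CPM (SD, n = 4 each), at -4.20 (SE 0.44, adjusted p = 6.843e-06), while TEX14 was not called at -0.51 (unadjusted p = 0.0446). U3 guides early cleavage of the ribosomal RNA precursor and is transcribed from its own promoter.

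**Figure D4:**
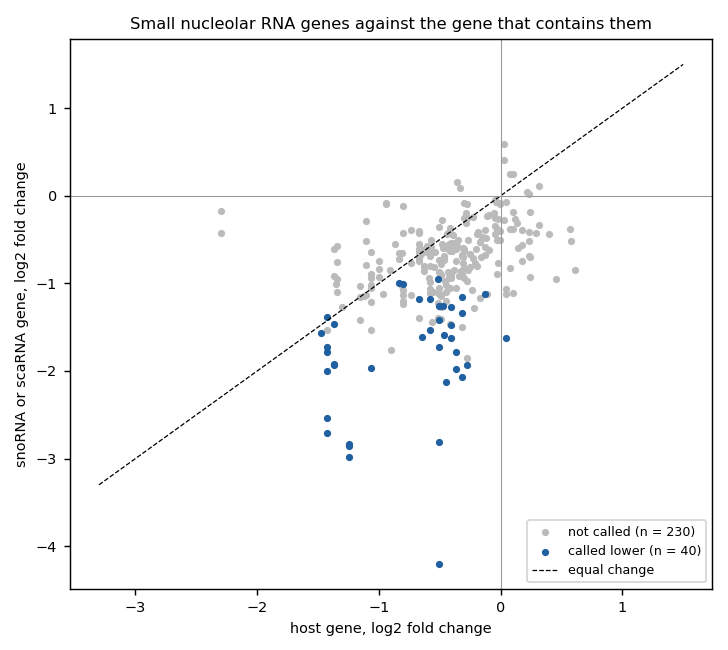
Log2 difference of each snoRNA or scaRNA gene (vertical) against that of the gene that contains it (horizontal), blue where the small RNA is called lower, with a dashed line at equal change. Of 270 small RNAs, 40 are called lower, and 39 of those 40 lie under the dashed line, with SNORD14C at -2.98 against -1.25 for HSPA8. The 40 were selected as low in this same comparison, which favours a place under the line, so the 39 give no separate evidence.

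Host lncRNAs, which are spliced to free their snoRNAs and then decay, were called lower in 7 of 23 cases (1 in the 8 libraries only). All 23 had a negative log2 difference, and the list's median was -0.67. SNHG5 measured 119, 223, 143 and 109 CPM with MG132 alone and 47.7, 61.3, 59.0 and 73.3 CPM with α-amanitin, at -1.30 (SE 0.23, adjusted p = 0.002852). EPB41L4A-AS1, the host of SNORA13, fell from 57.4 ± 16.6 to 20.6 ± 7.24 CPM, and GAS5, a growth-arrest lncRNA with several snoRNAs, from 413.3 ± 119.3 to 165.6 ± 32.3 CPM (SD, n = 4 each). SNHG1 (-1.42) lost its call without MG132 replicate 2 or α-amanitin replicate 1 or 2 (adjusted p between 0.0505 and 0.0658), and SNHG15 (-1.35) without α-amanitin replicate 1 (0.0543). The list's count was 4, 2, 3 and 4 without MG132 replicate 2 and α-amanitin replicates 1, 2 and 3, and 2 without the GC-skewed libraries.

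Precursors of microRNAs fell with their hosts in several cases. Rows for microRNA genes count reads over the hairpin and not the mature microRNA, which libraries of this kind do not capture well. Of 210 hairpins 12 were called lower and 1 higher, and 4 of the 9 in a host called lower were among the 12. Mature sequences of 4 (RefSeq, GRCh38.p14) are given with the seed, bases 2 to 8, in capitals, since MIR21 and MIR590 share it.
hsa-miR-21-5p, chr17:59841273-59841294, plus strand: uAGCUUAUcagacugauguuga
hsa-miR-590-5p, chr7:74191213-74191234, plus strand: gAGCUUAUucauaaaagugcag
hsa-miR-3189-3p, chr19:18386607-18386627, plus strand: cCCUUGGGucugaugggguag
hsa-miR-616-5p, chr12:57519223-57519244, minus strand: aCUCAAAAcccuucagugacuu

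MIR21, an abundant oncogenic microRNA made downstream of VMP1, had 21, 45, 26 and 14 counts with MG132 alone and 1, 2, 2 and 1 with α-amanitin, at -4.24 (SE 0.56, adjusted p = 0.0001233). VMP1, a gene of autophagosome formation whose read-through transcripts reach the hairpin, measured 323, 602, 332 and 228 CPM against 116, 138, 152 and 135 CPM, at -1.46 (SE 0.26). MIR3189, in an intron of GDF15, had 44, 25, 77 and 100 counts against 2, 3, 5 and 7, at -3.95 beside -3.60 for GDF15. MIR616, within DDIT3, had 32, 15, 34 and 30 counts against 8, 8, 3 and 3, at -2.47 beside -2.40. Reads of the host could be counted in the hairpin's row, since the counting of overlapping genes is not given in the sources used here.

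MIR590 lies in EIF4H, a translation factor gene that stayed at -0.14, and was itself called at -1.44 (adjusted p = 0.04326). Its call was lost without any 1 of 6 libraries, all but MG132 replicates 3 and 4 (adjusted p between 0.0645 and 0.193). The hairpin called higher, MIR612 at 1.66, lies within NEAT1.

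Other nuclear noncoding RNAs moved unevenly. MIR22HG, the host of MIR22 and a short-lived stress lncRNA, measured 6.62, 11.2, 7.92 and 6.93 CPM with MG132 alone and 0.851, 1.6, 2.84 and 2.27 CPM with α-amanitin, at -2.11 (SE 0.32, adjusted p = 0.0004305). MIR17HG, the primary transcript of a cell-growth microRNA cluster, fell from 13.3 ± 3.93 to 5.03 ± 1.85 CPM, and LINC-PINT, a p53-responsive lncRNA, from 22.7 ± 7.08 to 9.86 ± 1.89 CPM (SD, n = 4 each). LINC-PINT lost its call without α-amanitin replicate 1 (adjusted p = 0.0639). MALAT1, a long-lived nuclear speckle RNA, stood at -0.27 (adjusted p = 0.8946).

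An annotated small RNA inside the MALAT1 locus, ENSG00000274072 on chromosome 11 at 65506117 to 65506173, had 22, 17, 19 and 6 counts with MG132 alone and 0 in all 4 libraries with α-amanitin. Against a floor of 3 counts over the group, it was at least 24-fold lower with the toxin. ENSG00000285565, an unnamed transcript on chromosome 6 at 31828834 to 31839719 whose start lies inside HSPA1B, measured 589, 215, 572 and 731 CPM against 87.5, 98.9, 98.0 and 145 CPM, at -2.29 (SE 0.32). Reads of HSPA1B could reach its row.

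Replication-dependent histone genes were mostly lower, without a call. Their mRNAs end in a stem-loop instead of a poly(A) tail and turn over quickly outside S phase. None of 55 was called by edgeR as fitted here or by limma-voom. DESeq2 called 5, edgeR in the 8 libraries only 2 and edgeR with the correction for GC content and length 4. Of the 55, 34 had an unadjusted p under 0.05 and 54 a negative log2 difference, and the list's median was -1.25. H2BC11 measured 242, 250, 440 and 383 CPM with MG132 alone and 53.4, 64.8, 107 and 120 CPM with α-amanitin, at -1.93 (SE 0.57, adjusted p = 0.09096). It passed with DESeq2 (adjusted p = 0.0112), in the 8 libraries only (0.0239) and with the correction for GC content and length (0.0434). Its groups did not overlap. Histone genes took 0.704 ± 0.252% of all counts with MG132 alone and 0.321 ± 0.131% with α-amanitin (SD, n = 4 each), with an exact permutation p of 0.05714 (two-sided, 0.2 after adjustment over 7 shares). The smallest p that 4 against 4 libraries allow is 0.0286. Near-identical copies make single histone genes uncertain.

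Several large gene groups had no member called by edgeR, DESeq2 or limma-voom. All 73 cytosolic ribosomal protein genes had a negative log2 difference, at a list median of -0.45 with 5 at an unadjusted p under 0.05, and RPLP0 overlapped between the groups. RNA polymerase II subunits (12 genes, median -0.21, 0 at an unadjusted p under 0.05) included POLR2A, at 283, 120, 180 and 285 CPM against 280, 345, 285 and 234 CPM (0.40, adjusted p = 0.5785). Elongation and pause-release genes stood at a median of -0.01 over 30 genes, G2/M genes at -0.24 over 30 and glycolysis genes at -0.01 over 17, with 0, 2 and 2 genes at an unadjusted p under 0.05. PLK1, a mitotic kinase, measured 147 ± 37.7 CPM with MG132 alone and 146 ± 7.48 CPM with α-amanitin (SD, n = 4 each). Its difference of -0.01 turned positive, by up to 0.16, under several settings.

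The metabolic enzyme GAPDH (-0.25) and the actin gene ACTB (-0.04, but 0.11 under total library size scaling) were not called either. Of 105 KRAB zinc finger genes of chromosome 19, which encode short-lived repressors, none was called by these 3 tools, and the median was -0.16. An unadjusted p under 0.05 was held by 7 of the 105, beside 2368 of all 18959 tested genes. Without the GC-skewed libraries 4 of them were called, and 1 without MG132 replicate 4. The 13 mitochondrial mRNAs, made by a separate polymerase, had a median of 0.58, 1 at an unadjusted p under 0.05, and took 1.53 ± 0.242% of counts with α-amanitin and 1.20 ± 0.121% without (SD, n = 4 each; exact permutation p = 0.05714, adjusted 0.2). The called member that appeared without MG132 replicate 1 was MT-ND5, at 1.44 (adjusted p = 0.0414).

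Smaller groups held 2 or 3 calls. HERPUD1, an ER-associated degradation factor, fell from 183 ± 19 to 42.6 ± 14.7 CPM, XBP1, a factor of the unfolded protein response, from 157 ± 49.4 to 54.8 ± 15 CPM, and the ER chaperone HSPA5 from 677 ± 110 to 393 ± 68.3 CPM (SD, n = 4 each). They were the 3 called of 21 ER chaperone and degradation genes, whose median was -0.14, with 3 called without the GC-skewed libraries. HSPA5 lost its call without MG132 replicate 1 or α-amanitin replicate 1, 2 or 4 (adjusted p between 0.0531 and 0.111), and XBP1 without the GC-skewed libraries (0.0529). CLK1 and TRA2B were the 2 called of 19 splicing factor and CLK kinase genes, with none called without MG132 replicate 2 or α-amanitin replicate 1 or 2, 1 without any other single library but MG132 replicate 4, 5 without that one, and 4 without the GC-skewed libraries. CLK1, a kinase of splicing factors, had 34.2 CPM in MG132 replicate 4 beside 96.8, 162 and 119 CPM.

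None of 18 genes of the BCL2 family of apoptosis regulators was called by edgeR or limma-voom, 1 was called by DESeq2, 4 had an unadjusted p under 0.05 and the median was -0.17. Without MG132 replicate 4 the count was 1, and without the GC-skewed libraries 2. PMAIP1, the p53-inducible death effector NOXA, measured 135, 362, 184 and 34.5 CPM with MG132 alone and 50.1, 66.3, 75.5 and 66.7 CPM with α-amanitin. It was not called at -1.47 (adjusted p = 0.1222), and without MG132 replicate 4 it was, at -1.81 (adjusted p = 0.00566). MCL1, a short-lived survival protein gene, stood at -0.54 (adjusted p = 0.3007). Among 25 G1/S genes none was called by edgeR or limma-voom and 2 by DESeq2, with 4 at an unadjusted p under 0.05 and a median of -0.19, and 2 were called without MG132 replicate 4 and 3 without the GC-skewed libraries.

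Genes called higher were mostly weakly expressed. The median log2 CPM of the 74 protein-coding genes was 0.26, beside 4.39 for all 13755 tested and 5.21 for those called lower. The mean with α-amanitin was above every G2 library in 118 of all 129 higher genes, beside 3970 of all 18959 tested. The 129 were selected as higher in this comparison, which favours that place. Only 4 protein-coding genes reached a mean log2 CPM of 3 without overlap. ABCA2, a lipid transporter, measured 26.1, 16.6, 19.8 and 30.9 CPM with MG132 alone and 55.5, 53.5, 40.6 and 39.9 CPM with α-amanitin, at 1.02 (SE 0.26, adjusted p = 0.04326). NLGN2, a synaptic adhesion protein gene, stood at 0.97 (adjusted p = 0.04993), GJA3, a connexin gene, at 0.91 (0.03845) and GABBR1, a GABA receptor subunit gene, at 0.76 (0.046). All 4 calls lay near the threshold. ABCA2 and GABBR1 lost their calls without any 1 of the 7 libraries other than MG132 replicate 4 (adjusted p between 0.0529 and 0.173 and between 0.0835 and 0.184). GJA3 lost its call without any 1 of 6 libraries, all but replicate 3 of each group (0.0613 to 0.125), and NLGN2 without any 1 of 5, all but MG132 replicates 1 and 4 and α-amanitin replicate 3 (0.0646 to 0.208).

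Lower protein-coding genes were short with few exons. Their median length was 10010 bp and their median exon number 4, against 32899 bp and 9 for all tested protein-coding genes, and 21 of the 151 (13.9%) had a single exon against 2.59% of all. In the shortest of 4 bins of gene length 2.47% were called lower and in the longest 0.174%. Over 4 bins of exon number the share went from 2.89% in the lowest to 0.248% in the highest. Genes called higher had a median of 22738.5 bp and 11 exons, with no single-exon gene, and by exon number their share went from 0.453% to 0.718%. The median GC content was 53% for lower, 54.4% for higher and 49.6% for all tested genes, so that the GC content of the called genes also differed from that of the rest. In a joint fit with GC content, the slope of a gene's deviation on its exon length also set the 2 groups of libraries apart. It lay between 0.048 and 0.081 log2 units per doubling with α-amanitin and between -0.07 and 0.025 with MG132 alone. The part of GC content or of this slope in these shares was not tested.

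**Figure D5:**
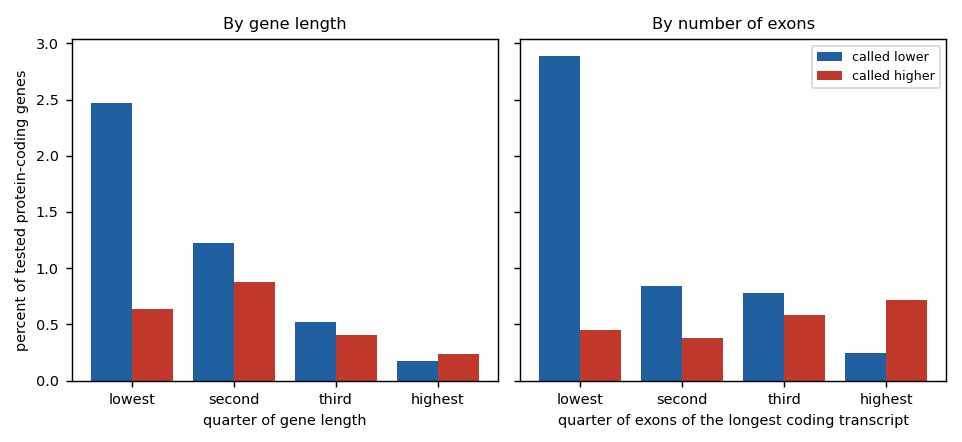
Percent of tested protein-coding genes called lower and called higher with α-amanitin, by 4 bins of gene length and of exon number, on axes that start at 0. The share called lower is 2.47% in the shortest bin and 0.174% in the longest, and 2.89% and 0.248% in the lowest and highest bin of exon number.

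Repeat subfamilies, counted over all copies of a kind, had few calls. Of 1076 tested, 3 were called lower (0.279%) and 4 higher (0.372%), with a median of 0.25 and 73 at an unadjusted p under 0.05. The 3 lower ones were sequences of endogenous retroviruses, and 62 of the 73 were among the 550 LTR subfamilies, whose median was 0.41. LTR12C, the long terminal repeat of HERV9 and a promoter for many host genes, measured 307, 257, 324 and 247 CPM with MG132 alone and 162, 138, 116 and 101 CPM with α-amanitin, at -1.13 (SE 0.22, adjusted p = 0.0177). Its internal sequence HERV9NC-int fell from 52.9 ± 13.7 to 23.7 ± 3.12 CPM, and LTR4 from 4.96 ± 0.665 to 2.02 ± 0.589 CPM (SD, n = 4 each). LTR12C and HERV9NC-int are the LTR and body of 1 retrovirus family, and neither overlapped between the groups.

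Higher were the internal sequences MER89-int at 2.30 and HERV15-int at 1.42, the repeat LTR10G at 1.51, and the satellite ACRO1 at 2.94. MER89-int measured 9.66, 3.99, 6.43 and 1.28 CPM against 44.4, 28.8, 16.5 and 15.5 CPM. No DNA transposon, LINE or SINE subfamily was called by edgeR, of 240, 165 and 57 tested, with 2 of each at an unadjusted p under 0.05. These calls were unstable: 0 subfamilies were called without MG132 replicate 3, 1 without α-amanitin replicate 2, 12 without MG132 replicate 1 and 2 without the GC-skewed libraries, and DESeq2 called 12 and limma-voom 9. Every one of the 7 lost its call without at least 1 library. Repeats took 7.86 ± 1.5% of counts with α-amanitin and 6.80 ± 1.58% with MG132 alone (SD, n = 4 each; exact permutation p = 0.3429).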

How the data were processed

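The table holds raw read counts per gene and per repeat subfamily for 20 libraries, as deposited by the authors. Per the labels' protocols, RNA was extracted with TRIzol, treated with DNase and, after removal of ribosomal RNA, used for stranded TruSeq total RNA libraries. FastQC, cutadapt 1.18, STAR and the hg38 build are named, without roles, per the submitters' processing notes. Not given in the sources used here are the counting tool, annotation release, strand setting and treatment of multi-mapped reads, so values of overlapping and near-identical genes are uncertain. All deposited sample columns were used, 0 being left over.

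From the counts, genes and repeats were fitted together over all 20 libraries with edgeR 4.0.16 (R 4.3.3, limma 3.58.1): filterByExpr, TMM scaling, 1 mean per group and the robust quasi-likelihood test, with 15 residual degrees of freedom and a biological coefficient of variation of 33.3%. Adjusted p-values are Benjamini-Hochberg values over 18959 genes and, separately, 1076 repeats, and a call is an adjusted p under 0.05. Shares of counts were compared by a two-sided exact permutation test. The script was tested on simulated data. GC content was known for 98.6% of tested rows, names for 39900 genes and GENCODE 29 positions (hg38) for 38661. Replicates of 1 group differed by more than sampling noise, so no pair was counted as 1 sample.

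The members and 31 gene lists were chosen with earlier results of these data known. The rule for naming was the 12 highest and 12 lowest called protein-coding genes whose groups did not overlap and whose average log2 CPM reached 3, up to 4 genes per list with the smallest p, a set of single genes, the 4 highest and lowest lncRNAs, the 5 highest and lowest repeats, and the 6 bortezomib-raised genes with the smallest p. The text gives those that carry the comparison. The U1, U3, snoRNA and microRNA genes and their hosts, ENSG00000274072, CRYAB, FGF21, further list members named in passing, and the repeats beyond the rule were chosen after their values were seen. Alternatives were other scalings and filters, DESeq2 1.42.0, limma-voom, the 8 libraries only, separate fits of genes and repeats, blocks for replicate number or code letter, a GC and length offset, a 2-fold minimum, and leaving out libraries. The counts per gene class and the values within code letters were added after seeing the data. Some results are not reported here.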

Additional observations from a re-analysis of the deposited data

Results flagged for a closer look

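In 10 of 234 groups of 4 libraries examined, 1 library lay apart from the other 3 by more than the 95% limit of Dixon's test, which chance passes in about 5% of groups. With α-amanitin, replicate 4 held 38.38 CPM of HMOX1, 41.81 CPM of OSGIN1 and 31.36 CPM of EPB41L4A-AS1, each the highest of its group, and replicate 3 held 7.791 CPM of MIR17HG. With MG132 alone, replicate 4 was the highest for CDKN1A (523.6 CPM) and the lowest for MDM2 (53.65 CPM). Replicate 2 was the highest for CXCL1 (1.581 CPM), DKK1 (237.3 CPM), MT-CO1 (6090 CPM) and SNORD28 (10.63 CPM). MG132 replicates 2 and 4 are the libraries with the GC slopes of -0.402 and 0.744, and their part in these values was not tested.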

How the results depend on the processing

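Of 117 genes and repeats followed, 84 were called, and 48 of these were called under every alternative run; 283 calls were lost over all alternatives, 35 of them in the fit of the 8 libraries only, 26 without α-amanitin replicate 1, 22 without the GC-skewed libraries and 0 with DESeq2. The 415 called genes became 718 with DESeq2, 189 in the 8 libraries only, 855 with the GC and length offset, and 186 to 547 when 1 library was left out. The 7 called repeats became 3 under mitochondrial mRNA scaling, 12 with DESeq2, 0 in the 8 libraries only, 58 when fitted apart from genes, 0 with the code letter block, 2 without the GC-skewed libraries, and 0 to 12 when 1 library was left out. The cause was not tested. Equal replicate numbers paired the samples only in part, with correlations of 0.526, 0.065, 0.03 and 0.501 for replicates 1 to 4. Replicates 1 and 4 of each group correlated best with their own number, and replicates 2 and 3 did not. The values given here use no pairing, and the replicate block gave 288 called genes and 3 repeats. Reversed signs, all in genes without a call, were these. Total library size scaling gave MDM2 0.028, POLR2B 0.192, HEXIM1 0.059, ACTB 0.107, PLK1 0.147 and MT-CO1 0.174. Mitochondrial mRNA scaling gave NFE2L1 -0.061. limma-voom gave MDM2 0.125, POLR2B 0.362, CCNT1 0.098, ACTB 0.026 and PLK1 0.025. Separate fits gave PLK1 0.019 and MT-CO1 0.021. The replicate block gave POLR2B 0.041, ACTB 0.008 and PLK1 0.016, and with the GC and length offset POLR2B 0.151 and NFE2L1 -0.014. The code letter block gave ACTB 0.044, PLK1 0.074 and MT-CO1 0.077, and the offset alone POLR2B 0.123 and NFE2L1 -0.011. Without the GC-skewed libraries PLK1 was 0.044, CCNB1 0.103 and MT-CO1 0.059. With 1 library left out, POLR2B ran from -0.371 to 0.292, HEXIM1 from -0.256 to 0.04, CCNT1 from -0.582 to 0.043, ACTB from -0.235 to 0.143, PLK1 from -0.135 to 0.16, MT-CO1 from -0.074 to 0.055 and NFE2L1 from -0.074 to 0.312. Counts of fewer than 10 per library limit FGF21, MIR21, CRYAB, MIR3189, MIR616, CXCL1 and INHBE with α-amanitin. Low counts with α-amanitin also limit RNVU1-34 (7, 11, 5 and 10), MIR590 (6, 11, 7 and 10) and RNVU1-19 (8, 13, 10 and 11).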
